A study of Mus musculus with 30 samples.

Results

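The collagen genes of the mouse were followed through aorta and kidney. Members were the rows of both count tables that were annotated as protein-coding and whose symbol had the form Col, number, a, number. There were 44 such genes among the 41128 genes of each table. Of these, 36 had at least 1 count in the aorta and 36 in the kidney, and 27 passed the filter on low counts in each tissue, where 14796 and 15034 genes were tested.

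Collagens are trimers of α-chains wound into a triple helix, and each gene encodes 1 chain. Fibrillar collagens (types I, III and V among others) form the tensile fibrils of the adventitia and of scar tissue, whereas type IV forms the sheet-like network of basement membranes, including that of the glomerulus. Type VI forms beaded filaments, type VIII a short-chain network beneath the endothelium, the fibril-associated collagens decorate fibrils, and the multiplexins XV and XVIII sit in basement membrane zones.

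Male mice with a deletion of the epidermal growth factor receptor gene (Egfr) in smooth muscle (KO) were compared with wild-type mice (WT) on a standard-fat diet (SFD) or a high-fat diet (HFD). In KO mice a Cre recombinase, driven by the smooth muscle promoter Smmhc and switched on by tamoxifen, acted on floxed Egfr. The WT controls had this Cre but no loxP sites and were likewise given tamoxifen for 5 days. The HFD was begun 7 days later, at 6 weeks of age, and tissue was taken after 18 weeks of diet. The strain label was C57Bl6J for all groups.

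Aorta libraries numbered 3 in WT-SFD, 4 in WT-HFD, 3 in KO-SFD and 4 in KO-HFD. Each kidney group had 4 libraries. Libraries are numbered within their group, and values are listed in that order. Each library came from 1 mouse, and 3 mice gave both an aorta and a kidney library (WT-SFD replicate 1 in both tissues, KO-SFD aorta 1 and kidney 3, and KO-HFD aorta 3 and kidney 2). The study describes its excised organs, aortae among them, as freed of adjacent tissue. Aortae and kidneys were sequenced at different facilities and normalised separately, so that tissue and facility cannot be told apart in any level set across them.

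Levels are given as FPM, that is, fragments per 1000000 counted fragments of the library after TMM (trimmed mean of M values) normalisation. Aorta libraries held 6403699 to 13052870 counts and kidney libraries 16354880 to 28331314 counts. Collagen genes took 0.515% to 1.00% of the count in the aorta and 0.0976% to 0.178% in the kidney. Differences are log2 fold changes with their standard error (SE), tested by quasi-likelihood in edgeR, with Benjamini-Hochberg adjustment over all genes tested in the tissue. A gene is said to have risen or fallen where its adjusted p was under 0.05.

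The targeted gene was examined first. On SFD, Egfr stood at 46.6, 39.4 and 54.2 FPM in WT aortae and at 26.7, 35.5 and 28.0 FPM in KO aortae. On HFD it stood at 65.0, 56.9, 51.1 and 56.9 FPM in WT and at 27.5, 40.5, 39.6 and 33.3 FPM in KO. Within a diet, no KO aorta reached the level of a WT aorta. In the kidney, where smooth muscle is a small part of the tissue, WT libraries ranged from 36.9 to 58.4 FPM and KO libraries from 40.4 to 60.8 FPM, and the genotypes overlapped. The counts cover all exons and all cell types of the tissue.

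No gene on chromosomes 9, X or Y or in the mitochondrial genome had a count in any library of either tissue. The gap on 9 and X left 8 collagen genes without a value. These were Col4a5 and Col4a6 on X, and Col5a3, Col6a4, Col6a5, Col6a6, Col7a1 and Col12a1 on chromosome 9. Col4a5 encodes the chain that joins the Col4a3 and Col4a4 products in the glomerular basement membrane, and it was not analysed here. A further 9 collagen genes in each tissue had counts but stayed under the filter. In the aorta these were Col2a1, Col9a1, Col9a2, Col9a3, Col11a1, Col13a1, Col24a1, Col25a1 and Col26a1, several of them collagens of cartilage. In the kidney they were Col2a1, Col9a1, Col9a2, Col9a3, Col10a1, Col17a1, Col22a1, Col25a1 and Col28a1.

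Levels were compared between genes only per kilobase of exon (FPM per kb). In the aorta the highest mean level over the 14 libraries was that of Col1a1, the α1-chain of type I, with 169.8 ± 35.5 FPM per kb (SD). Col18a1, the source of endostatin, followed with 144.1 ± 23.6, Col3a1 with 98.5 ± 17.4, Col1a2 with 96.7 ± 19.5 and Col4a1 with 75.7 ± 8.88 FPM per kb. Col3a1 and Col1a2 differed by less than the SD of either, and Col1a1 and Col18a1 by less than the SD of Col1a1 only. The lowest tested genes were Col22a1 at a mean of 0.0803 FPM per kb, Col17a1 at 0.204 and Col28a1, a collagen of peripheral nerve, at 0.217.

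In the kidney the order was different. Col18a1 came first with 34.2 ± 4.12 FPM per kb over 16 libraries, followed by Col4a2 with 26.6 ± 3.15, Col4a1 with 24.7 ± 3.11, Col4a4 with 21.7 ± 2.998 and Col4a3 with 16.8 ± 4.27. Col1a1, first in the aorta, reached 3.39 ± 0.699 FPM per kb. Col27a1, a fibrillar collagen known from cartilage, reached 14.6 ± 9.64 FPM per kb, with the widest spread among these genes. This order did not hold in every library, since Col27a1 ran from 3.67 to 12.1 FPM per kb in the SFD kidneys and from 15.0 to 41.0 FPM per kb in the HFD kidneys. In KO-HFD kidney 3, at 41.0 FPM per kb, it stood above Col18a1 at 29.1.

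**Figure D1:**
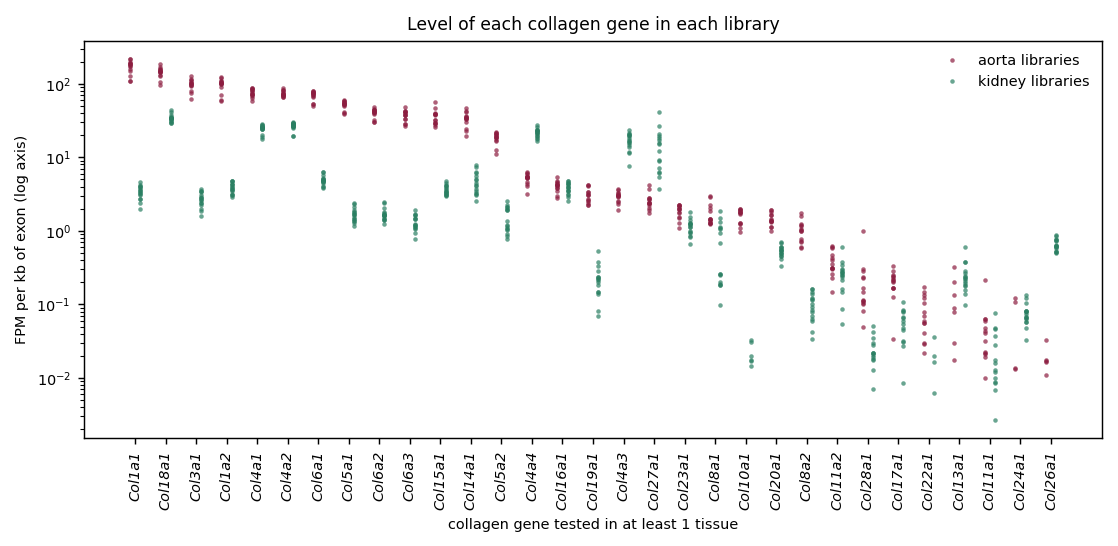
Level of each collagen gene tested in at least 1 tissue, in FPM per kilobase of exon (log axis), for aorta and kidney, with 1 point per library. Libraries at 0 are not drawn. By mean over libraries, Col1a1 leads in the aorta and Col18a1 in the kidney, with type IV chains next to it.

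By structural class, fibrillar collagens made up 44.9% ± 2.75 (SD, n = 14) of the summed collagen level per kb in the aorta, multiplexins 18.5% ± 1.81, type IV 16.5% ± 1.91, type VI 15.1% ± 0.697 and fibril-associated collagens 4.35% ± 0.450. In the kidney type IV held 50.9% ± 3.94 (SD, n = 16), multiplexins 21.7% ± 2.82, fibrillar collagens 15.8% ± 4.55, fibril-associated collagens 5.36% ± 0.549 and type VI 4.55% ± 0.650. Over the kidneys the fibrillar share ran from 10.8% to 27.9% and the multiplexin share from 16.9% to 27.65%. The order of fibrillar collagens and multiplexins thus did not hold in every kidney. Fibrillar transcripts thus led in the aorta and type IV transcripts in the kidney, although Col4a5 and Col4a6 are missing from these sums.

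The chains of a trimer were compared as ratios of their per-kb levels. The per-kb ratio of Col4a1 to Col4a2 had a mean of 1.02 ± 0.0808 (SD over libraries) for the aorta and of 0.928 ± 0.0569 for the kidney. These genes lie head to head on chromosome 8 (mm10, Col4a1 at 11198423 to 11312826 on the minus strand, Col4a2 at 11312805 to 11449287 on the plus strand) and share 22 bases of exon. Col4a3 to Col4a4, the other head-to-head type IV pair with counts, stood at 0.572 ± 0.0513 and 0.764 ± 0.112. Col1a1 to Col1a2 stood at 1.76 ± 0.150 in the aorta and 0.878 ± 0.119 in the kidney, and Col6a1 to Col6a2 at 1.72 ± 0.0710 and 2.93 ± 0.347. Col6a3 to Col6a2 varied more in the kidney (0.794 ± 0.216, from 0.473 to 1.18) than in the aorta (0.918 ± 0.0916).

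For type V, the aortic per-kb ratio of Col5a1 to Col5a2 stood at 2.84 ± 0.377. In the kidney it was 0.734 ± 0.165 in WT-SFD and 1.84 ± 0.592 in WT-HFD, and 0.922 ± 0.196 in KO-SFD and 1.66 ± 0.373 in KO-HFD (SD, n = 4 each). The SFD libraries ran up to 0.936 in WT and 1.12 in KO, and the HFD libraries started at 1.31 and 1.23, so that the diets did not overlap in either genotype. The ratio itself was not tested.

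The kidney data addressed whether HFD altered collagen transcripts and whether Egfr in smooth muscle mattered for it. HFD raised Col8a1 in both genotypes and Col27a1 in KO, and lowered Col5a2 in both genotypes and Col16a1 in KO. In WT, Col27a1 and Col16a1 differed in the same direction without overlap (log2 fold change 1.07 and -0.32) but did not pass in edgeR. No collagen gene passed when the diet effects of the genotypes were compared. The KO calls of Col5a2 and Col16a1 lay close to the threshold. Col1a1, Col3a1 and Col4a1, the collagens for which the study had primers, showed no detectable change. In WT, 2 of 27 tested collagen genes passed, against 0.964% of all genes tested, and in KO 4 of 27, against 2.39%. By direction, 1 collagen gene rose in WT (0.818% of all genes) and 1 fell (0.146%), and in KO 2 rose (1.57%) and 2 fell (0.825%). At the stricter adjusted p under 0.001, 1 collagen gene passed in WT (0.173% of all genes) and 1 in KO (0.333%), Col8a1 in both. At an unadjusted p under 0.05 there were 6 in WT (8.05%) and 7 in KO (16.1%). The groups did not overlap for 5 collagen genes in WT (5.01% of all genes) and for 5 in KO (8.87%).

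Col8a1 and Col27a1, which rose most, are shown with the 250 bases before their RefSeq start sites, since both rose in KO kidneys on HFD. The sequences are from RefSeq (GRCm38.p6, the assembly of mm10), written 5′ to 3′ on the strand of the gene. Capitals mark GGGCGG, the GC box, or CCGCCC, the same letters on the opposite strand. The Col8a1 window is chr16:57754738-57754987 on the minus strand, and the Col27a1 window is chr4:63215162-63215411 on the plus strand.
Col8a1: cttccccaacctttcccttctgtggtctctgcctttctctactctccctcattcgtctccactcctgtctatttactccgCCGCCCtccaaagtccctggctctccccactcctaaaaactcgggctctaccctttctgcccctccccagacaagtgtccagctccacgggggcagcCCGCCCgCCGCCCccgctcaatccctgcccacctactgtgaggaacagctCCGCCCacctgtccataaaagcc
Col27a1: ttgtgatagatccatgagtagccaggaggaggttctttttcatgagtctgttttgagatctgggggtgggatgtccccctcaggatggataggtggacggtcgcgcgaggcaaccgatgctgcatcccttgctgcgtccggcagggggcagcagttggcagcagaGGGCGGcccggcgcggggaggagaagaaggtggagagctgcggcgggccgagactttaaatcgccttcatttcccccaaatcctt

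Neither window holds an annotated exon, although the Col27a1 window lies within the span of a longer annotated transcript. Col8a1 had 4 GC boxes and Col27a1 had 1. On either strand, GGGCGG was found in 32.7% of the 32851 promoter windows of this length, CCAAT in 33.8% and TATAAA in 12.4%. A window was available for 35 of the 44 collagen genes, of which 21 held GGGCGG, 13 CCAAT and 5 TATAAA. A CArG box, the serum response factor motif of smooth muscle genes, was found in 1 collagen window (Col6a4) and in 1.47% of all windows. Neither Col8a1 nor Col27a1 held any of these other motifs in this window.

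Col8a1 (ENSMUSG00000068196, chromosome 16, 57624258 to 57754737, minus strand) encodes the α1-chain of type VIII. In WT it stood at 2.06, 1.44, 2.02 and 1.97 FPM on SFD and at 11.8, 7.45, 8.35 and 5.40 FPM on HFD. In KO it stood at 1.45, 1.51, 0.766 and 1.58 FPM on SFD and at 8.94, 10.3, 14.5 and 8.59 FPM on HFD. All 8 HFD kidneys lay above all 8 SFD kidneys. The log2 fold change was 2.12 ± 0.26 (SE, edgeR adjusted p = 4.05e-04) in WT and 2.99 ± 0.28 (edgeR adjusted p = 3.83e-05) in KO, that is 4.33-fold and 7.93-fold. These levels rest on 15 to 59 counts per SFD library and 113 to 254 per HFD library. Its partner chain Col8a2 did not pass in either genotype (log2 fold change 0.63 in WT and -0.18 in KO).

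Among fibrillar collagens, Col27a1 (ENSMUSG00000045672, chromosome 4, 63214004 to 63334991, plus strand) stood at 121.3, 69.6, 93.9 and 157.4 FPM in WT-SFD and at 226.9, 274.6, 234.9 and 195.6 FPM in WT-HFD. In KO it stood at 82.0, 47.8, 117.6 and 80.7 FPM on SFD and at 257.6, 204.1, 533.8 and 345.9 FPM on HFD. The diets did not overlap in either genotype, and KO-HFD kidney 3 was the highest. The difference in KO was 4.08-fold, with a log2 fold change of 2.03 ± 0.31 (edgeR adjusted p = 0.00127), and it was 1.72 without KO-HFD kidney 3. In WT it was 1.07 ± 0.30 and did not pass in edgeR (adjusted p = 0.143), whereas it passed in DESeq2 (adjusted p = 0.0211).

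**Figure D2:**
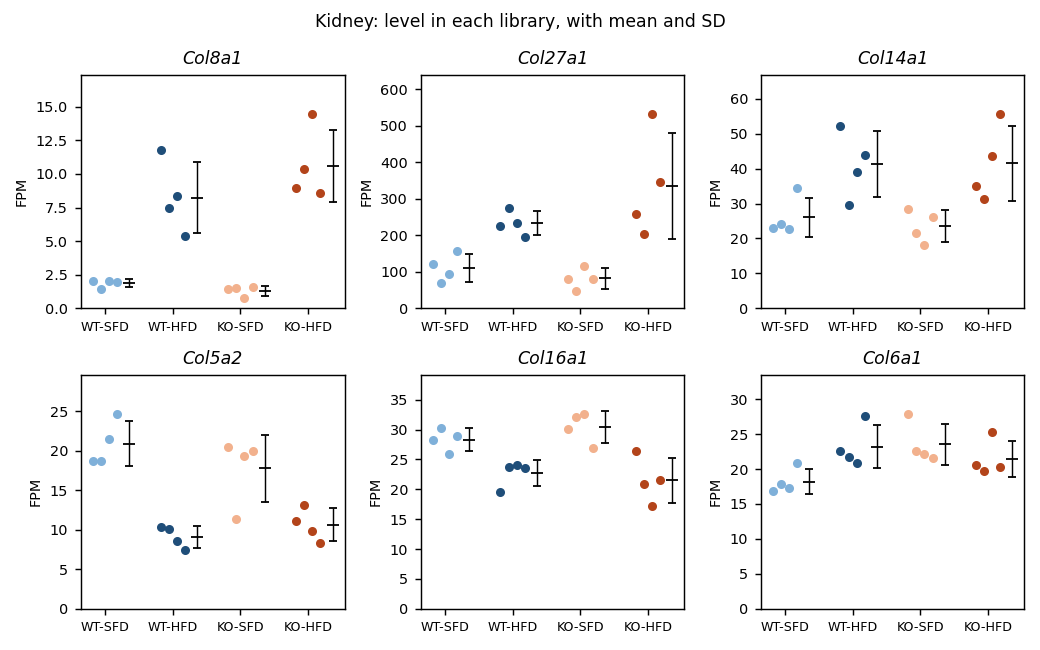
FPM of Col8a1, Col27a1, Col14a1, Col5a2, Col16a1 and Col6a1 in the 16 kidney libraries by group, with points for libraries and bars for mean ± SD (n = 4). Col8a1 and Col27a1 lie higher on HFD in both genotypes, and Col5a2 and Col16a1 lie lower, with overlap for Col5a2 in KO.

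Col5a2 (ENSMUSG00000026042, chromosome 1, 45374321 to 45503282, minus strand) encodes the α2-chain of type V, which is built into type I fibrils and limits their width. It stood at 18.7, 18.6, 21.5 and 24.7 FPM in WT-SFD against 10.4, 10.1, 8.63 and 7.40 FPM in WT-HFD, with no overlap. In KO the SFD kidneys stood at 20.4, 11.4, 19.3 and 19.98 FPM and the HFD kidneys at 11.2, 13.2, 9.87 and 8.29 FPM. Here KO-SFD kidney 2 lay within the HFD range. The log2 fold change was -1.20 ± 0.19 (edgeR adjusted p = 0.00231, 2.29-fold lower) in WT and -0.74 ± 0.19 (edgeR adjusted p = 0.0458, 1.67-fold lower) in KO.

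Col16a1 (ENSMUSG00000040690, chromosome 4, 130047840 to 130099283, plus strand) encodes a fibril-associated collagen. It stood at 30.2, 32.1, 32.7 and 26.9 FPM in KO-SFD and at 26.4, 20.9, 17.2 and 21.5 FPM in KO-HFD, with the highest HFD kidney just below the lowest SFD kidney. The log2 fold change was -0.50 ± 0.12 (edgeR adjusted p = 0.0329, 1.41-fold lower). In WT it stood at 28.3, 30.3, 25.9 and 28.9 FPM on SFD and at 19.5, 23.8, 24.1 and 23.6 FPM on HFD. The WT diets did not overlap either, but the log2 fold change of -0.32 ± 0.12 did not pass (edgeR adjusted p = 0.406).

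The KO results of Col5a2 and Col16a1 lay close to the threshold. When a single library of KO-SFD or KO-HFD was left out, the call was lost in 6 of 8 fits for each gene. For Col5a2 the edgeR adjusted p was 0.00597 without KO-SFD kidney 2 and 0.0319 without KO-HFD kidney 2, and it lay between 0.06555 and 0.149 without any 1 of the other 6. For Col16a1 it was between 0.0588 and 0.109 without KO-SFD kidney 1, 2 or 3 or KO-HFD kidney 2, 3 or 4. Both calls were lost together without KO-SFD kidney 1 or 3 or KO-HFD kidney 3 or 4, and without any 1 of the last 3 this left 2 of 27, among 269, 218 and 203 genes called in all, against 360 with every library. Both were also lost with library totals in place of TMM and when only the compared groups were fitted.

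Col14a1 (chromosome 15, 55307750 to 55520803, plus strand), a fibril-associated collagen also named undulin, just missed the threshold in KO. It stood at 28.5, 21.6, 18.1 and 26.1 FPM in KO-SFD and at 35.1, 31.4, 43.6 and 55.7 FPM in KO-HFD, without overlap (log2 fold change 0.81 ± 0.21, edgeR adjusted p = 0.0507). In WT the SFD kidneys stood at 23.0, 24.1, 22.6 and 34.4 FPM and the HFD kidneys at 52.2, 29.7, 39.0 and 44.0 FPM (0.66 ± 0.21, edgeR adjusted p = 0.225). Those groups overlapped through 1 SFD and 1 HFD library.

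Of type VI, Col6a1 stood at 16.9, 17.8, 17.2 and 20.8 FPM in WT-SFD and at 22.6, 21.7, 20.9 and 27.6 FPM in WT-HFD. The groups did not overlap by a narrow margin (log2 fold change 0.35 ± 0.12, edgeR adjusted p = 0.317). In KO it stood at 27.9, 22.6, 22.1 and 21.6 FPM on SFD and at 20.6, 19.7, 25.2 and 20.2 FPM on HFD.

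The fibrillar collagens that are usually measured in fibrosis showed no such shift. Col1a1 stood at 17.9, 20.4, 22.9 and 21.3 FPM in WT-SFD, 25.9, 21.0, 15.6 and 27.7 FPM in WT-HFD, 30.3, 18.1, 13.0 and 24.6 FPM in KO-SFD, and 26.3, 21.9, 23.3 and 26.1 FPM in KO-HFD. Col3a1 stood at 23.5, 27.3, 27.8 and 23.5 FPM in WT-SFD, 33.6, 21.9, 18.3 and 34.4 FPM in WT-HFD, 37.0, 19.6, 15.4 and 33.8 FPM in KO-SFD, and 25.6, 28.2, 25.6 and 30.4 FPM in KO-HFD. All groups overlapped for both genes. The log2 fold changes on HFD were 0.13 and 0.18 for Col1a1 and 0.09 and 0.06 for Col3a1, in WT and KO. With 1 library left out, the Col1a1 values ran from 0.01 (without WT-HFD kidney 4) to 0.26 (without WT-HFD kidney 3) in WT and from 0.00 (without KO-SFD kidney 3) to 0.40 (without KO-SFD kidney 1) in KO.

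The type IV chains, among the most abundant collagen transcripts of the kidney, overlapped between diets too. Col4a1 stood at 181.8, 192.4, 183.2 and 192.2 FPM in WT-SFD, 195.8, 141.6, 207.4 and 212.0 FPM in WT-HFD, 200.2, 133.7, 148.7 and 186.6 FPM in KO-SFD, and 183.0, 192.0, 185.6 and 207.2 FPM in KO-HFD. Col4a2 stood at 180.6, 194.3, 175.8 and 190.8 FPM, 174.7, 129.1, 185.7 and 194.1 FPM, 198.5, 128.3, 164.5 and 175.1 FPM, and 191.0, 170.2, 174.4 and 187.6 FPM in the same order of groups. WT-HFD kidney 2 and KO-SFD kidney 2 were the lowest for both chains.

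Col4a3, a chain of the glomerular basement membrane, stood at 215.4, 162.7, 199.8 and 199.4 FPM in WT-SFD, 194.4, 115.9, 238.2 and 169.3 FPM in WT-HFD, 183.8, 75.0, 116.2 and 154.9 FPM in KO-SFD, and 148.5, 205.4, 135.6 and 166.8 FPM in KO-HFD. Its partner Col4a4 stood at 272.6, 225.4, 244.8 and 245.9 FPM, 250.9, 187.4, 296.5 and 237.4 FPM, 242.2, 176.4, 203.8 and 228.4 FPM, and 204.5, 252.9, 196.7 and 217.8 FPM in the same order. Again WT-HFD kidney 2 and KO-SFD kidney 2 were lowest in their groups. Col18a1 stood at 239.7, 293.4, 243.1 and 216.2 FPM, 229.7, 209.9, 240.6 and 245.5 FPM, 307.1, 233.1, 203.0 and 246.5 FPM, and 266.2, 237.2, 204.5 and 228.1 FPM in that order, with all groups overlapping. None of these 3 genes passed in either diet comparison.

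**Figure D3:**
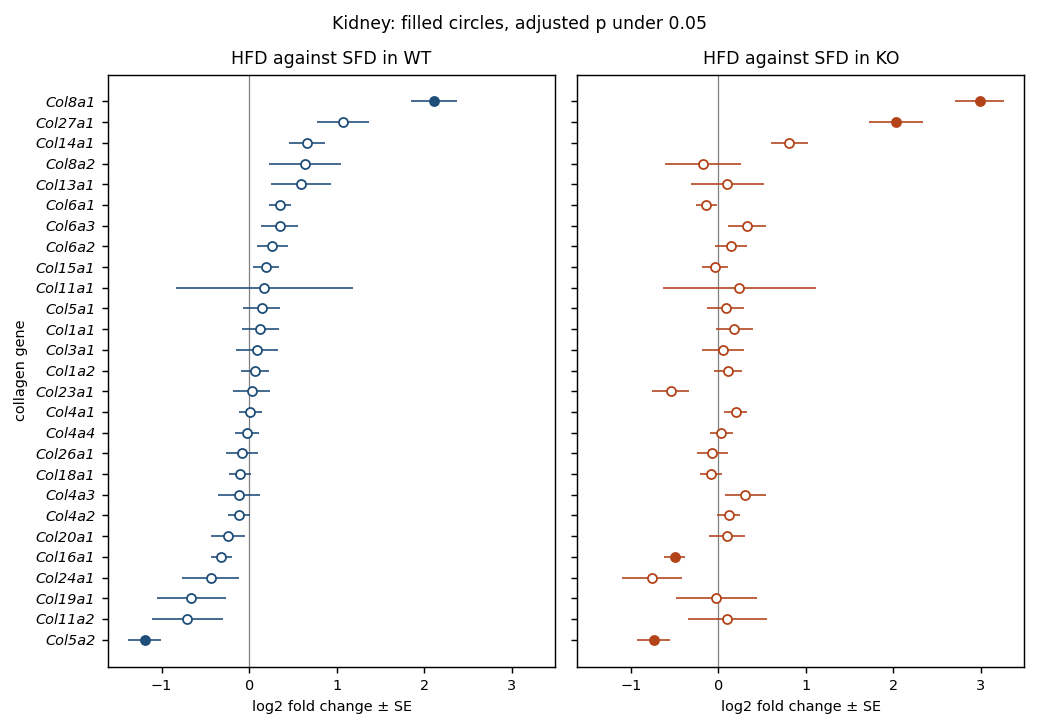
Log2 fold change of HFD against SFD in the kidney with its SE for the 27 tested collagen genes, in WT and KO. Filled symbols passed an edgeR adjusted p of 0.05: Col8a1 and Col5a2 in both genotypes, Col27a1 and Col16a1 in KO.

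Over the 27 tested collagen genes the median log2 fold change on HFD was 0.07 in WT, with 16 above 0, and 0.10 in KO, with 17 above 0. The medians over all tested genes were -0.00 in both. By class and in the order WT, KO, type IV chains spanned -0.12 to 0.01 and 0.04 to 0.31, and the multiplexins -0.10 to 0.19 and -0.08 to -0.04. Summed over all collagen genes, the level ranged from 1400 to 1483 FPM in WT-SFD, 1312 to 1656 in WT-HFD, 1041 to 1560 in KO-SFD and 1547 to 1720 in KO-HFD.

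Markers of kidney cell types were read beside these changes. None of the tested markers of smooth muscle, fibroblasts, endothelium, leucocytes, podocytes or mesangium passed in a diet comparison, and the summed fibroblast markers overlapped in all groups (57.2 to 107.1 FPM). Tubule markers did move. The proximal glucose carrier Slc5a2 rose by a log2 fold change of 1.20 in WT (edgeR adjusted p = 0.00533) and 1.54 in KO (edgeR adjusted p = 5.94e-04), and the lactate carrier Slc5a12 rose by 1.13 in KO (edgeR adjusted p = 0.0253). The 5 proximal markers, led by Slc34a1, summed to 7886 to 9119 FPM in KO-SFD and to 9176 to 14200 FPM in KO-HFD, whereas in WT their sums overlapped (8831 to 11940 FPM on SFD and 8927 to 10800 FPM on HFD). The 5 loop and collecting duct markers, led by Umod, summed to 8570 to 9108 FPM in KO-SFD and to 4503 to 7422 FPM in KO-HFD. In WT their sums overlapped (6256 to 8458 FPM on SFD and 5616 to 7432 FPM on HFD). The distal carrier Slc12a3 nevertheless rose by 0.71 in KO (edgeR adjusted p = 0.0124).

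Sox9, a transcription factor of cartilage that is also known from injured tubules, rose by a log2 fold change of 2.19 in WT (edgeR adjusted p = 0.00633) and 2.89 in KO (edgeR adjusted p = 8.22e-04). It reached 0.188 to 0.921 FPM in WT-SFD, 1.89 to 3.07 in WT-HFD, 0.256 to 0.491 in KO-SFD and 1.25 to 3.42 in KO-HFD. The 5 cartilage markers summed to 0.691 to 2.33 FPM on SFD and 2.33 to 4.94 FPM on HFD over both genotypes. Sox9 was the most abundant of them. Matn1, a defining cartilage gene, was at 0 in every kidney library, and Chad and Hapln1 did not pass. Of the 8 adipocyte markers, Lep rose in KO by 4.91 (edgeR adjusted p = 0.0158), while their sum ranged from 67.3 to 684.3 FPM in KO-SFD and from 59.8 to 181.1 FPM in KO-HFD. The part of these cell types in the collagen results was not tested. In whole tissue, fewer cells of a type and less RNA per cell cannot be told apart.

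Deletion of Egfr in smooth muscle was followed by no collagen call in the kidney. With edgeR 0 of 27 collagen genes passed on SFD (0.0133% of all genes) and 0 on HFD (0% of all genes), and DESeq2 also called 0. At an unadjusted p under 0.05 there were 2 collagen genes on SFD (8.69% of all genes) and 1 on HFD (1.75%). The SFD groups did not overlap for 1 collagen gene (3.98%) and the HFD groups for 0 (1.32%).

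On SFD, that gene was Col6a1, higher in KO by a log2 fold change of 0.37 ± 0.12 (edgeR adjusted p = 0.447). Col4a3 was lower by 0.55 (log2 fold change -0.55 ± 0.24, edgeR adjusted p = 0.549), with KO-SFD kidney 2 lowest at 75.0 FPM. The 5 podocyte markers summed to 225.9 to 312.9 FPM in WT-SFD and to 171.1 to 214.2 FPM in KO-SFD, with no overlap and with KO-SFD kidney 2 lowest, and their part in the Col4a3 difference was not tested. Col23a1, a transmembrane collagen, stood at 6.99, 5.53, 5.75 and 7.17 FPM in WT-SFD and at 8.77, 8.08, 10.3 and 5.40 FPM in KO-SFD (0.36 ± 0.21, edgeR adjusted p = 0.630). Col19a1 stood at 1.95, 0.565, 2.60 and 3.67 FPM in WT-SFD and at 1.64, 0.485, 1.53 and 1.47 FPM in KO-SFD (-0.83 ± 0.41, edgeR adjusted p = 0.582). Apart from Col6a1 these groups overlapped. Single libraries moved these values, to -0.36 for Col4a3 without KO-SFD kidney 2, to 0.23 for Col23a1 without KO-SFD kidney 3 and to -0.51 for Col19a1 without WT-SFD kidney 4.

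On HFD, KO exceeded WT in Col27a1 by 0.52 ± 0.29 and in Col8a1 by 0.35 ± 0.21 on the log2 scale, with overlapping groups. Without KO-HFD kidney 3 these differences fell to 0.22 and 0.18, and without WT-HFD kidney 1 that of Col8a1 rose to 0.59. Col13a1, a transmembrane collagen, stood at 1.11, 1.07, 2.78 and 1.77 FPM in WT-HFD and at 0.813, 0.648, 0.949 and 1.31 FPM in KO-HFD (-0.84 ± 0.37). Col4a4 differed by -0.16 ± 0.13. Without WT-HFD kidney 3 the differences were -0.51 for Col13a1 and -0.05 for Col4a4, and without WT-HFD kidney 2 that of Col4a4 was -0.27. All 4 had an edgeR adjusted p of 1.00.

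Whether the diet effect itself differed between genotypes was tested as an interaction. With edgeR 0 of 27 collagen genes passed (0% of all genes), DESeq2 called 0, and 3 had an unadjusted p under 0.05 (3.35% of all genes). The diet effect was larger in KO by 0.96 ± 0.42 for Col27a1 and by 0.87 ± 0.40 for Col8a1 on the log2 scale. For Col6a1 the log2 fold change on HFD was 0.35 in WT and -0.14 in KO (difference -0.49 ± 0.17), and for Col23a1 it was 0.03 in WT and -0.54 in KO (difference -0.58 ± 0.30). The edgeR adjusted p was 1.00 for all 4, so the effects in WT and KO were not shown to differ. In KO-HFD Col23a1 stood at 7.16, 4.80, 3.80 and 6.53 FPM and in WT-HFD at 6.47, 7.29, 4.88 and 7.26 FPM.

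Before the aorta comparisons are given, a difference between its libraries needs description. The summed level of 8 adipocyte markers was 3488 and 2403 FPM in WT-SFD aortae 1 and 2, and 2007 and 736 FPM in KO-SFD aortae 1 and 2. In the other SFD aorta of each genotype it was 81.0 and 80.5 FPM, and in the HFD aortae 92.4 to 175.4 FPM (WT) and 42.5 to 126.0 FPM (KO). Fabp4 was the most abundant of these genes and none of the 8 was at 0. The 6 smooth muscle markers summed to 9418, 11630 and 14510 FPM in WT-SFD, 14950 to 15710 in WT-HFD, 10130, 15200 and 15800 in KO-SFD, and 14110 to 17020 in KO-HFD. Acta2 was their most abundant gene, and Tagln and Cnn1 on chromosome 9 had no counts. The 6 fibroblast markers, led by Dcn, summed to 611, 463 and 744 FPM in WT-SFD, 710 to 992 in WT-HFD, 493, 1088 and 862 in KO-SFD, and 645 to 985 in KO-HFD.

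HFD moved no collagen gene past the threshold in the aorta. With edgeR 0 of 27 collagen genes passed in WT and 0 in KO (0% of all genes in either comparison). At an unadjusted p under 0.05 there were 5 collagen genes in WT (17.0% of all genes) and 1 in KO (7.85%). The groups did not overlap for 4 collagen genes in WT (8.96% of all genes) and for 1 in KO (7.04%). DESeq2 called 1 collagen gene in WT, Col8a2, among 666 genes in all, and 0 in KO.

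Col1a1 (ENSMUSG00000001506, chromosome 11, 94936224 to 94953042, plus strand) stood at 836.7, 705.8 and 1435 FPM in WT-SFD and at 1143, 1232, 1287 and 1243 FPM in WT-HFD. In KO it stood at 712.6, 1414 and 1046 FPM on SFD and at 974.8, 1211, 1143 and 1221 FPM on HFD. The HFD aortae lay close together, inside the wide range of the SFD aortae. Col1a2 did likewise, with 759.0, 887.3 and 1513 FPM in WT-SFD, values from 1249 to 1340 FPM in the 4 WT-HFD aortae, 735.6, 1477 and 1252 FPM in KO-SFD, and 1128, 1274, 1269 and 1340 FPM in KO-HFD. Col3a1, the chain of type III, stood at 787.4, 731.5 and 1015 FPM in WT-SFD and 1119, 983.2, 1018 and 931.0 FPM in WT-HFD. KO aortae stood at 612.5, 1272 and 906.4 FPM on SFD and at 944.6, 1128, 1081 and 1008 FPM on HFD. Within the SFD groups, the lowest values of Col1a1 and Col3a1 were in aortae rich in adipocyte markers, but KO-SFD aorta 2, also rich in them, was the highest of its group.

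For these genes the log2 fold changes on HFD were 0.31 ± 0.23 and 0.11 (WT and KO) for Col1a1 and 0.26 ± 0.20 and 0.16 for Col3a1, with edgeR adjusted p of 0.549 and 0.535 in WT. With 1 library left out, the WT values ran from 0.11 (without WT-SFD aorta 2) to 0.67 (without WT-SFD aorta 3) for Col1a1 and, without the same libraries, from 0.17 to 0.42 for Col3a1. The KO values ran from -0.11 to 0.38 for Col1a1 and from -0.065 to 0.46 for Col3a1, without KO-SFD aorta 1 and aorta 2 respectively. Without the 4 SFD aortae richest in adipocyte markers, the WT values were -0.23 for Col1a1 and -0.0032 for Col3a1. Col4a1 stood at 542.2, 604.8 and 476.4 FPM in WT-SFD, 652.5, 537.4, 573.2 and 538.3 FPM in WT-HFD, 440.3, 647.4 and 511.3 FPM in KO-SFD, and 521.9, 602.0, 642.7 and 624.3 FPM in KO-HFD. Its log2 fold changes were 0.09 and 0.17, and all groups overlapped. They ran from 0.01 (without WT-SFD aorta 3) to 0.18 (without WT-SFD aorta 2) in WT and from 0.05 (without KO-SFD aorta 1) to 0.34 (without KO-SFD aorta 2) in KO. Col18a1 (chromosome 10, 77052178 to 77166548, minus strand) stood at 669.3, 902.1 and 914.7 FPM in WT-SFD and at 1020, 1086, 1061 and 1014 FPM in WT-HFD, without overlap (0.33 ± 0.16, edgeR adjusted p = 0.292). KO aortae stood at 736.2, 1031 and 1125 FPM on SFD and at 1015, 1105, 1194 and 1292 FPM on HFD, with overlap.

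**Figure D4:**
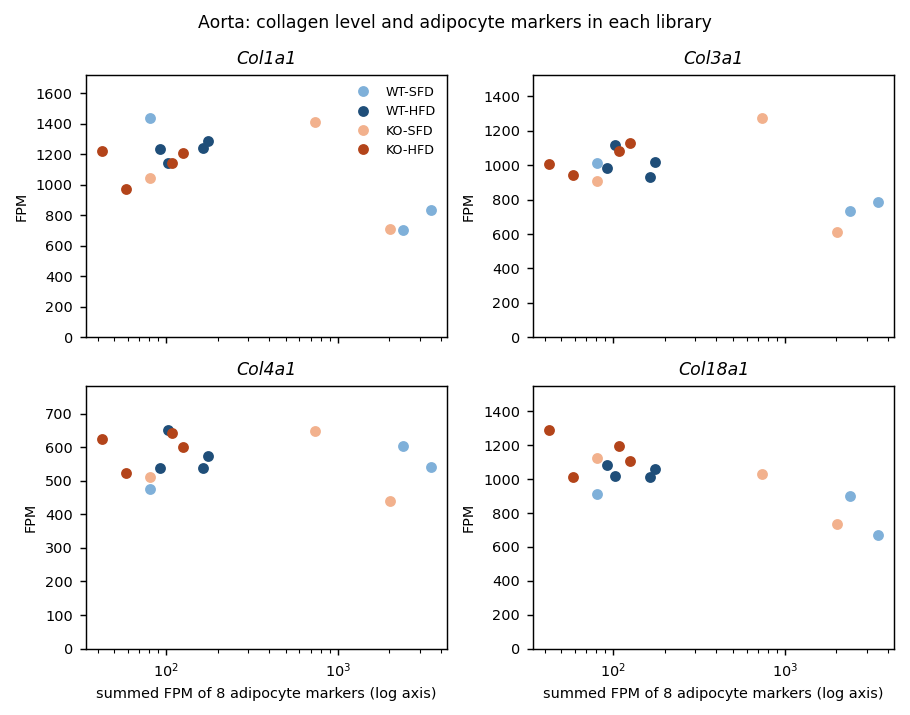
FPM of Col1a1, Col3a1, Col4a1 and Col18a1 (vertical axes) against the summed FPM of 8 adipocyte markers (log axis) in the 14 aorta libraries, coloured by group. WT-SFD aortae 1 and 2 and KO-SFD aortae 1 and 2 lie to the right, at 736 to 3488 FPM.

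On HFD in WT aortae, the collagen genes with the smallest p were Col8a2 and Col5a1 among the higher and Col28a1 and Col20a1 among the lower. Col8a2 (ENSMUSG00000056174, chromosome 4, 126286793 to 126314330, plus strand), the α2-chain of type VIII, stood at 3.13, 2.66 and 3.31 FPM in WT-SFD and at 4.48, 7.12, 7.91 and 5.36 FPM in WT-HFD. The groups did not overlap (log2 fold change 1.04 ± 0.27, 2.06-fold). It missed the threshold in edgeR (adjusted p = 0.0688) and passed in DESeq2 (adjusted p = 0.0211). KO aortae stood at 2.67, 5.28 and 3.53 FPM on SFD and at 5.49, 4.69, 4.47 and 4.78 FPM on HFD, with overlap.

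Col5a1, the α1-chain of type V, stood at 337.9, 327.2 and 439.5 FPM in WT-SFD and at 424.5, 470.7, 510.2 and 473.2 FPM in WT-HFD (0.35 ± 0.12, edgeR adjusted p = 0.153). Col28a1 (chromosome 6, 7997808 to 8192617, minus strand) stood at 4.90, 1.13 and 1.15 FPM in WT-SFD and at 0.814, 0.501, 0.728 and 0.510 FPM in WT-HFD (-1.84 ± 0.55, edgeR adjusted p = 0.0930). All HFD values were lower, but they rest on 4 to 8 counts per library, and WT-SFD aorta 1 stood far above the other 2. Without that library the log2 fold change was -0.81. The 4 skeletal muscle markers also had their highest sum there (13.8 FPM, against at most 5.83 FPM in the other 13 aortae). Tnnt3 was the most abundant of them over the aortae, and Acta1 was at 0 in each aorta. The part of these markers in this result was not tested, nor was that of Schwann cell markers, a list not reported here. Col20a1, a fibril-associated collagen, stood at 9.94, 9.21 and 9.80 FPM in WT-SFD and at 7.53, 7.22, 6.97 and 8.42 FPM in WT-HFD (-0.36 ± 0.17, edgeR adjusted p = 0.302), again without overlap.

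In KO aortae the smallest p on HFD was that of Col15a1, a multiplexin of vascular basement membrane zones. It stood at 163.1, 204.8 and 186.9 FPM in KO-SFD and at 183.5, 250.0, 297.3 and 357.0 FPM in KO-HFD, with 1 overlapping HFD aorta (0.56 ± 0.18, edgeR adjusted p = 0.541). Col6a3, a chain of type VI, stood at 335.4, 447.6 and 447.7 FPM on SFD and at 505.2, 447.7, 503.1 and 578.1 FPM on HFD (0.31 ± 0.16, edgeR adjusted p = 0.657), where the groups met without overlapping. Col28a1 stood at 1.47, 1.39 and 0.543 FPM on SFD and 0.244, 0.562, 0.399 and 0.546 FPM on HFD (-1.27 ± 0.66). Col22a1, known from muscle and tendon junctions, stood at 0.267, 1.25 and 1.36 FPM and at 0.976, 0.375, 0.719 and 0.273 FPM (-0.73 ± 0.55). Both groups of Col28a1 and of Col22a1 overlapped. The Col22a1 value ran from -1.13 without KO-SFD aorta 1 to -0.35 without KO-SFD aorta 3, and that of Col6a3 fell to 0.18 without KO-SFD aorta 1.

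**Figure D5:**
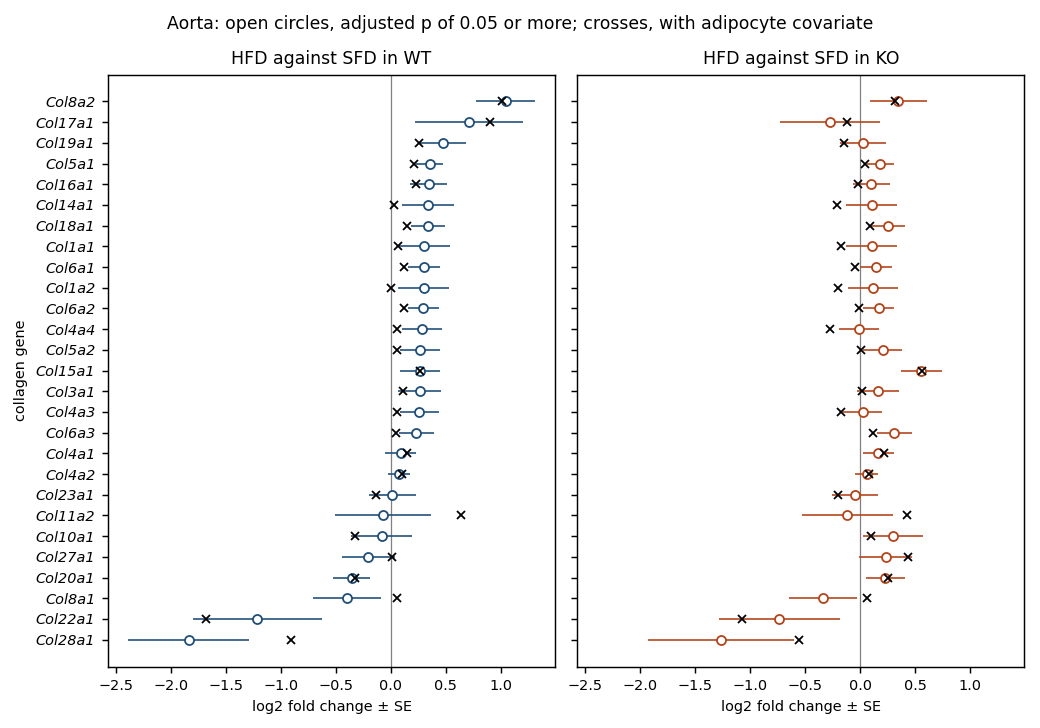
Log2 fold change of HFD against SFD in the aorta with its SE for the 27 tested collagen genes, in WT and KO; crosses show the value with the adipocyte marker mean as a covariate. No symbol is filled, since no collagen gene passed an edgeR adjusted p of 0.05.

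Over the 27 tested collagen genes the median log2 fold change on HFD was 0.26 in WT, with 20 above 0, and 0.12 in KO, also with 20 above 0. The medians over all tested genes were -0.01 and -0.00. With library totals in place of TMM the median of all genes itself moved to 0.10 in WT and to -0.11 in KO. With the adipocyte marker mean as a covariate the collagen median was 0.07 in WT and 0.01 in KO, and Col1a1 stood at 0.07 and -0.17. With the same covariate the WT values were 0.11 for Col3a1, 0.14 for Col4a1, 0.15 for Col18a1, 0.21 for Col5a1 and -0.91 for Col28a1. The KO values were 0.02 for Col3a1, 0.12 for Col6a3 and -0.56 for Col28a1. Col8a2 stood at 1.01 and Col20a1 at -0.33 in WT and Col15a1 at 0.56 in KO, close to their values without it. Col22a1 in KO went to -1.07. Without the 4 SFD aortae richest in adipocyte markers, which left 1 SFD aorta per genotype, the collagen median was -0.02 in WT and 0.09 in KO, with 11 and 20 genes above 0. The lone SFD aorta is there assumed to vary like the other groups.

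The WT result also depended on a single library. WT-SFD aorta 3 had a low adipocyte marker sum and the highest Col1a1 of its group. Without it, 8 collagen genes passed in edgeR, among 1907 genes called in all. They were Col1a1, Col4a4, Col5a1, Col6a1, Col6a2, Col8a2, Col16a1 and Col28a1. The WT-SFD aortae left in that fit, 1 and 2, had adipocyte marker sums of 3488 and 2403 FPM, against 92.4 to 175.4 FPM in WT-HFD. Diet and adipocyte marker level cannot be told apart in that fit. Without KO-SFD aorta 1, 1 collagen gene passed, Col8a2, among 630 genes. In each of the other 12 fits that left out a library, 0 passed in WT, and in KO 0 passed in all 14.

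Summed over all collagen genes, the aorta held 5856 to 8272 FPM in WT-SFD, 7933 to 8324 in WT-HFD, 5496 to 8949 in KO-SFD and 7492 to 8866 in KO-HFD. By class and in the order WT, KO, the log2 fold changes on HFD spanned 0.23 to 0.30 and 0.14 to 0.31 for type VI chains, 0.07 to 0.28 and -0.01 to 0.17 for type IV chains, and -0.20 to 0.35 and -0.12 to 0.23 for fibrillar chains.

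Between genotypes no collagen gene passed in the aorta either. With edgeR 0 of 27 passed on SFD (0.0811% of all genes), 0 on HFD (0.0811%) and 0 in the interaction (0%), and DESeq2 called 0 in each. At an unadjusted p under 0.05 there were 1 on SFD (6.54% of all genes), 0 on HFD (5.35%) and 1 in the interaction (4.37%). The groups did not overlap for 1 collagen gene on SFD (8.57%) and for 0 on HFD (4.18%). With library totals in place of TMM the median of all genes moved from -0.03 to 0.27 on SFD and from 0.02 to -0.20 in the interaction.

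That gene on SFD was Col20a1, at 5.75, 7.09 and 5.16 FPM in KO-SFD against 9.21 to 9.94 FPM in WT-SFD (log2 fold change -0.69 ± 0.19, edgeR adjusted p = 0.559). Col28a1 differed by -1.11 ± 0.56, and by -0.08 without WT-SFD aorta 1. Col23a1 stood at 8.99, 6.24 and 12.8 FPM in WT-SFD and at 12.3, 11.4 and 12.8 FPM in KO-SFD (0.39 ± 0.23, edgeR adjusted p = 0.789). Col4a3 stood at 19.2, 24.6 and 31.1 FPM and at 23.4, 35.9 and 32.7 FPM (0.30 ± 0.19, edgeR adjusted p = 0.795). Other than for Col20a1 the groups overlapped. With 1 library left out, the Col23a1 difference ran from 0.16 (without WT-SFD aorta 2) to 0.69 (without WT-SFD aorta 3), and that of Col4a3 from 0.14 (without WT-SFD aorta 1) to 0.48 (without WT-SFD aorta 3).

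On HFD, Col23a1 stood at 7.43, 8.53, 11.6 and 9.95 FPM in WT and at 10.4, 11.2, 12.5 and 13.0 FPM in KO (0.33 ± 0.20). Col4a2 stood at 478.7, 462.2, 497.8 and 467.6 FPM in WT and at 479.3, 535.1, 540.8 and 543.1 FPM in KO (0.14 ± 0.10). Col14a1 stood at 325.3, 251.4, 249.2 and 239.3 FPM in WT and at 210.0, 255.2, 239.2 and 233.7 FPM in KO (-0.18). Without WT-HFD aorta 1 the Col14a1 difference was -0.07. All overlapped, Col8a2 differed by -0.36 ± 0.23 (-0.23 without WT-HFD aorta 3), and the edgeR adjusted p was 0.999 for all 4.

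In the interaction the diet effect in KO exceeded that in WT by 0.59 ± 0.25 for Col20a1 and by 0.44 ± 0.34 for Col27a1 on the log2 scale. It was lower by -0.70 ± 0.37 for Col8a2 and by -0.44 ± 0.30 for Col19a1 (edgeR adjusted p = 0.998 for all 4). The Col27a1 value fell to 0.16 without KO-HFD aorta 1, that of Col8a2 went to -0.44 without KO-SFD aorta 2, and that of Col19a1 to -0.20 without KO-SFD aorta 3. Col27a1 stood at 47.8, 29.5 and 31.0 FPM in WT-SFD, 22.9, 31.5, 36.1 and 34.7 FPM in WT-HFD, 35.7, 31.6 and 26.6 FPM in KO-SFD, and 53.9, 36.5, 25.1 and 31.7 FPM in KO-HFD, with all groups overlapping. Col19a1 stood at 16.8, 15.7 and 18.7 FPM, 29.1, 15.5, 21.5 and 28.3 FPM, 18.2, 17.5 and 29.3 FPM, and 21.4, 21.1, 23.2 and 23.2 FPM in the same order.

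The genes that make, process, bind and sense collagen were read from 4 lists. Of 18 genes for synthesis enzymes and chaperones, 9 were tested in the aorta and 10 in the kidney, since Plod2, Crtap and Ppib on chromosome 9 had no counts, 4 symbols had no row, and the filter on low counts removed a further 2 from the aortic test and 1 from the renal test. Of 8 genes for procollagen processing 6 were tested, of 12 for collagen-binding matrix proteins 10, and of 8 for receptors 6. Among the receptors, Itga11 on chromosome 9 and Itgb1 on chromosome 8 had no counts in either tissue. In the aorta 0 of the 31 tested genes passed in any comparison with edgeR or DESeq2, and at an unadjusted p under 0.05 there were 5 on HFD in WT (17.0% of all genes) and 4 on HFD in KO (7.85%). In the kidney 1 of 32 passed in edgeR, on HFD in KO (2.39% of all genes).

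That gene was Pcolce, an enhancer of procollagen C-proteinase. It fell in KO kidneys on HFD, from 162.3 ± 18.4 FPM (SD, n = 4) to 118.1 ± 4.75 FPM, with no overlap (log2 fold change -0.46 ± 0.12, edgeR adjusted p = 0.0443). P4ha2, a prolyl 4-hydroxylase chain, stood at 26.6 ± 2.11 against 33.2 ± 1.37 FPM in the same comparison (-0.32 ± 0.08, edgeR adjusted p = 0.0532). DESeq2 called both genes in that comparison. Lama5, a basement membrane laminin chain, differed there by 0.31 ± 0.14 and the collagen receptor Ddr1 by 0.24 ± 0.12, and neither passed.

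In WT aortae on HFD the lysyl hydroxylase Plod3 stood at 44.7 ± 1.83 FPM (n = 4) against 35.3 ± 1.82 FPM (n = 3), and the collagen-binding integrin Itga10 at 15.4 ± 2.39 against 11.2 ± 1.39 FPM. Their log2 fold changes of 0.34 ± 0.13 and 0.46 ± 0.16 did not pass (edgeR adjusted p = 0.188 and 0.138). In KO aortae Tll1, a tolloid-like procollagen proteinase, differed by -1.77 ± 0.60 and Lama5 by 0.29 ± 0.10, without passing. The median log2 fold changes of the 4 lists in WT aortae were 0.27, 0.26, 0.22 and 0.24, close to the collagen median of 0.26 in the same libraries. With the adipocyte covariate that collagen median was 0.07, and the list medians with it are not given here.

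Genes whose levels ran most like Col1a1 and Col4a1 within groups are given as a description, as Pearson's r of log2 values after removal of group means. All genes of a tissue share library and depth. For Col1a1 in the aorta these were Tspan11 (r = 0.953), Adamts2, which cleaves the procollagen N-propeptide (r = 0.945), and Gdf10 (r = 0.937) over 14 libraries. In the kidney they were Col3a1 (r = 0.930), the gelatinase Mmp2 (r = 0.892) and Lbh (r = 0.840) over 16 libraries. For Col4a1 they were Rassf3 (r = 0.917), Ccdc42 (r = 0.915) and Col4a2 (r = 0.906) in the aorta, and Col4a2 (r = 0.924), Lrig2 (r = 0.921) and Tnfrsf11a (r = 0.897) in the kidney.

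Exons of other genes covered at most 6.07% of a collagen gene's exon length (Col9a3), and they covered none of Col8a1, Col27a1, Col5a2 or Col16a1. The strand setting of the counting is not given in the sources used here, so reads from overlapping genes cannot be told apart.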

How the data were processed

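Per the labels, reads were trimmed with cutadapt, aligned with TopHat to mm10 and counted per gene with featureCounts. The paper states that kidney reads were quality-checked and trimmed by the external sequencing company. The authors deposited 1 table of raw counts per tissue for aorta (14 libraries) and kidney (16 libraries). The strand setting is not given in the sources used here. RNA of the aorta was depleted of rRNA. The study lists 4 animals per aorta group; 3 SFD libraries per genotype were used here.

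Here, all libraries of a tissue were fitted together in edgeR 4.0.16 (R 4.3.3) with 1 coefficient per group, filterByExpr, TMM factors and the quasi-likelihood test (glmQLFit with legacy off), without covariates. FPM is the count divided by the effective library size. DESeq2 1.42.0 was an alternative, beside other scalings, filters and gene sets, a threshold of 0.001 taken from the methods, an adipocyte covariate, fits on the groups compared and each library left out. The code was tested on simulated data. Replicates are single mice. Named genes were the primer genes, the 5 most abundant collagens per tissue and in each comparison, up to 2 higher and 2 lower collagens ranked by p. The members and lists were chosen with earlier results of these data known. Of the marker lists, 1 is not reported here.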

Additional observations from a re-analysis of the deposited data

Results flagged for a closer look

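In groups of 4 libraries, the highest or lowest value of each named collagen gene was compared with the others, and 9 of 96 groups held a value with a gap to its neighbour beyond Dixon's critical value. Chance gives about 1 in 20. In the kidney, Col8a1 was low in WT-SFD replicate 2 (1.44 FPM, others 1.97 to 2.06) and in KO-SFD replicate 3 (0.766 FPM, others 1.45 to 1.58). KO-SFD kidney 2 was low in Col5a2 (11.4 FPM, others 19.3 to 20.4) and in Col19a1 (0.485 FPM, others 1.47 to 1.64), and it also had the lowest summed collagen level of all kidneys (1041 FPM). Col16a1 was low in WT-HFD kidney 1 (19.5 FPM, others 23.6 to 24.1). Col6a1 was high in KO-SFD kidney 1 (27.9 FPM, others 21.6 to 22.6) and in KO-HFD kidney 3 (25.2 FPM, others 19.7 to 20.6). In the aorta, Col4a2 was low in KO-HFD replicate 1 (479.3 FPM, others 535.1 to 543.1), and Col14a1 was high in WT-HFD replicate 1 (325.3 FPM, others 239.3 to 251.4).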

How the results depend on the processing

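Of 493 values under another scaling, filter, tool, threshold, covariate or set of libraries, 477 kept their direction and their side of the threshold. DESeq2 called 1 collagen gene for HFD in WT aortae (Col8a2). The kidney count for HFD in KO fell to 2 (Col8a1 and Col27a1) with library totals without TMM (356 genes called in all) and with only the groups compared (235 genes, against 360 as reported), where the Col5a2 difference stayed at -0.74 under both and that of Col16a1 at -0.49 and -0.51; at an adjusted p under 0.001 it was 1 in WT and 1 in KO (Col8a1). In KO aortae the Col1a1 difference reversed to -0.031 with library totals and to -0.17 with the adipocyte covariate. Without the 4 SFD aortae richest in adipocyte markers, an alternative chosen after seeing the data, Col1a1 and Col3a1 in WT turned to -0.23 and -0.0032 and Col23a1 on SFD to -0.0079. The cause was not tested.

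With each library left out in turn there were 600 values, of which 569 kept their direction and call. A count was again taken as kept within 1.5-fold. The count ranged from 0 to 8 for HFD in WT aortae (0 to 1907 genes called in all). It ranged from 2 to 5 for HFD in KO kidneys (203 to 422 genes called in all). It was 2 in all 16 fits for WT kidneys (99 to 156 genes in all) and 0 in the other comparisons. The kidney count in KO was 2 without KO-SFD replicate 3, KO-HFD replicate 3 or KO-HFD replicate 4. Ranges that crossed 0 were those of Col1a1 (-0.11 to 0.38) and Col3a1 (-0.065 to 0.46) in KO aortae, of Col3a1 (-0.049 to 0.23) and Col4a1 (-0.046 to 0.14) in WT kidneys, and of Col3a1 (-0.13 to 0.26) in KO kidneys. No paired analysis was possible because every library of a tissue came from a different mouse, and the numbers within groups only name the libraries. Genes under about 10 counts per library, such as Col28a1 in the aorta, are limited by depth.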
